A study of Mus musculus with 68 samples.

Results

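Neurofilament and other cytoskeletal genes of neurons, 10 in all, were followed across motor neurons made from mouse embryonic stem cells, in most of which 1 or 2 candidate factors had been switched on. The 10 genes are Nefl, Nefm, Nefh, Prph, Ina, Mapt, Stmn2, Tubb3, Gap43 and Map2. They were chosen by name, with earlier results of these data known, to describe neuronal maturation across the lines. All 10 were measured among the 19938 genes tested. Each was read by 1 transcript cluster, the set of probes that stands for a transcript on these arrays, except Ina, which had a pair of clusters, of which the one with the higher mean was used. Values are log2 RMA values from 68 Affymetrix arrays.

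Intermediate filaments of neurons are copolymers. Nefl, Nefm and Nefh encode the light, medium and heavy neurofilament subunits, Ina encodes alpha-internexin, and Prph encodes peripherin, a partner subunit known from peripheral and motor neurons. Neurofilaments fill axons and set their calibre, and the heavy subunit is known to be added late in maturation. Microtubules run beside them: Tubb3 encodes the neuronal beta-tubulin, Mapt encodes tau on axonal microtubules, Map2 encodes the dendritic counterpart, and Stmn2 encodes a stathmin of growing axons that binds tubulin. Gap43 encodes a membrane protein of growth cones.

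The cells, labelled as strain C57/BL6, were grown as embryoid bodies, patterned from day 2 with retinoic acid plus an agonist of Smoothened, and dissociated on day 5, when magnetic sorting took those with the motor neuron reporter, CD2 in some lines and CD14 in others. Doxycycline then induced a transgene during 30 h of culture, or only in the last 10 h for some lines with Notch transgenes. Every line, YFP included, thus shared the sort, the morphogens and the culture. Under the CD2 reporter the lines were Klf5, Sfmbt2, Pou3f1, H4 parental, Zbtb7c, Hey1, Klf6, Notch1 ICD (10), Notch1 ICD (30), DNLhx3, Chd5, Btbd3, Vwc2, Arid5b, Tox, Hoxa5, Hoxc6, Zic1, Lhx3 and, as the control, YFP. Under the CD14 reporter they were Pou3f1, Pou3f1;DNLhx3, Pou3f1;Lhx3, Pou3f1;Hoxa5, Pou3f1;Hoxc6, Pou3f1-FLAG, NERT (10), NERT (30), E3 parental, E3 parental induced and, as the control, YFP. ICD stands for the Notch intracellular domain, and the bracketed numbers are hours of induction. DNLhx3 is written Lhx3 (DN) in the array titles, with DN read here as dominant negative. NERT, H4 and E3 are spelled as in the labels, which name no factor for the parental lines. There were 45 arrays with CD2 and 23 with CD14, in 31 groups: 4 arrays each of YFP CD2, YFP CD14 and Pou3f1 CD2, 3 of H4 parental, 1 of E3 parental and 2 of each other group. The labels do not say whether replicates came from separate cultures, or how many clones a line represents, so the p-values measure the spread among these arrays, which may be technical. The arrays fell into 8 labelled batches, and 27 groups were tested against YFP of their own reporter in 1 limma fit with a term per group and per batch. E3 parental, with 1 array, and E3 parental induced, alone in its batch, were not compared. A gene is said to have risen or fallen when its Benjamini-Hochberg adjusted p over 19938 genes was under 0.05, and ± after a difference is the standard error of that fit. In bulk RNA, fewer cells of a type and less RNA per cell cannot be told apart. Nor can a transgene be told apart from other differences between lines.

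The sort was checked on marker genes in the 8 YFP arrays. Array medians were 7.57 to 7.84 in batches 1 to 7. Isl1 read 12.46 to 12.97, Slc18a3, the vesicular acetylcholine transporter, 12.80 to 13.24, and Ret, a receptor for GDNF, 11.95 to 12.82. Chat, which makes acetylcholine, read 9.96 to 10.41, Mnx1 8.51 to 9.37 and Lhx3 7.67 to 7.87. Of 8 glial markers, Slc1a3 read 9.08 to 9.98 and Mbp 8.80 to 9.43, and the other 6 read 6.15 to 7.94, Gfap among them (6.50 to 7.01). Of 11 pluripotency markers, Lin28a read 8.99 to 10.11 and Sall4 8.37 to 9.08, and the other 9 read 5.83 to 7.88, Pou5f1 among them (5.83 to 6.24). Among the mesoderm and fibroblast markers, Acta2, a smooth muscle actin, read 11.52 to 13.70, Tagln 7.98 to 11.72 and Dcn 8.09 to 11.39. The rest of that list read between 4.53 and 9.97, with Lum lowest (4.53 to 4.96) and Col1a1 reaching highest (8.57 to 9.97). The induced genes were read as a check of the labels, though it is not known whether their clusters read the transgenes. Notch1 was at 11.85 and 11.91 in Notch1 ICD (10) and at 12.30 and 12.43 in Notch1 ICD (30), against 9.87 to 11.19 in YFP CD2, and at 10.88 to 11.53 in both NERT groups, against 9.29 to 10.25 in YFP CD14. Lhx3 was at 11.03 to 11.65 in the Lhx3 and Pou3f1;Lhx3 lines and at 7.94 to 8.45 in the DNLhx3 and Pou3f1;DNLhx3 lines, against 7.67 to 7.87 in YFP, but it also read 10.02 and 10.42 on the batch 4 arrays of Pou3f1 CD2, whose label names no Lhx3. Pou3f1 was at 8.76 to 10.33 in the CD14 lines labelled with it, against 8.31 to 8.48 in YFP CD14, and at 9.48 to 10.70 in Pou3f1 CD2, against 8.39 to 8.69 in YFP CD2, but it also read 9.05 and 9.79 in Notch1 ICD (30). Hoxc6 was at 9.84 and 10.00 in Pou3f1;Hoxc6, against 6.38 to 6.65 in YFP CD14. Hoxa5 was at 11.01 on the higher array of Pou3f1;Hoxa5, against 9.10 to 9.58 in YFP CD14, but was at least as high in Pou3f1;DNLhx3 (11.16 and 11.29) and Pou3f1;Hoxc6 (12.09 and 12.14).

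Some arrays stood apart. Of the 9 arrays of batch 4, 6 read Hoxa5 at 12.14 to 12.75, against 9.62 to 9.90 in the other 3, and these 6 also read Nefm at 12.51 to 13.02, against 13.14 to 13.24. Gap43 (12.67 to 12.96, against 13.05 to 13.10) and Tubb3 (12.015 to 12.29, against 12.36 to 12.43) were lower too. Nefh was higher (9.84 to 10.27, against 9.12 to 9.79), and the rest of the 10 genes overlapped. The share of all genes without overlap was not computed, and the other 3 arrays are of different lines. In batch 6, the 6 arrays of Pou3f1;Hoxa5, Pou3f1;Hoxc6 and Pou3f1-FLAG read Malat1, a nuclear RNA, at 11.96 to 12.25, while the other 7 CD14 arrays of that batch read it at 10.36 to 10.91. The 2 batch 0 arrays, of E3 parental induced, had medians of up to 7.09, entered no comparison and were left out of ranges over arrays below.

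RefSeq promoters were at hand for 4 of the 10 genes, Map2, Tubb3, Prph and Ina, each of 300 bases, from 250 before to 50 after the start. They are shown for the intermediate filament pair, because Prph was the gene called in most comparisons and Ina, its partner subunit, was called against YFP in none. The Prph sequence is chr15:99054924-99055223, plus strand, and that of Ina is chr19:47014431-47014730, plus strand, both in GRCm38.p6. Capitals mark TATAAA, the letters of a TATA box.
Prph: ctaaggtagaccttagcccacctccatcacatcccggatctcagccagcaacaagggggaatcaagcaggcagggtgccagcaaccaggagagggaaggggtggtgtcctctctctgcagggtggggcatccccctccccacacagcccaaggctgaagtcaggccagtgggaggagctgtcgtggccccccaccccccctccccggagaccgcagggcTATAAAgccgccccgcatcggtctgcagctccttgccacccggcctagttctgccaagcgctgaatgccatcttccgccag
Ina: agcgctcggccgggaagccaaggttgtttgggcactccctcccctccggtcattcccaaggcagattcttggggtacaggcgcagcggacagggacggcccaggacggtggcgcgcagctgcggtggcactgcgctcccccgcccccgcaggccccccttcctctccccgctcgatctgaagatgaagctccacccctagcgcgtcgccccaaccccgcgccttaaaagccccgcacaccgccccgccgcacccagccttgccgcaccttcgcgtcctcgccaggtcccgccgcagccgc
On both strands, TATAAA was found in 13.6% of 32851 RefSeq promoters. Of the 4, Prph alone held it, 31 bases before the start. The letters TGGGAA, the core bound by the Notch partner RBPJ, were in 25.6% of promoters and, of the 4, in Ina only. TAATTA, a homeodomain core, was in 5.3% and in none of the 4. Such matches describe letters in this window only.

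Seen over all lines, most calls fell on Nefm and Prph. Against YFP, 14 of 270 tests of these genes passed, 12 lower and 2 higher, in 7 of 27 comparisons. That is 5.19% of the tests, against 1.99% of all gene tests in the same comparisons (1.12% higher and 0.872% lower). Prph fell in 5 comparisons and rose in 2, Nefm fell in 5, and Nefl and Gap43 fell in 1 each. Nefh, Ina, Mapt, Stmn2, Tubb3 and Map2 passed in none of the 27, although 50 of the 270 tests had an unadjusted p under 0.05. All lines of a reporter share the same 4 YFP arrays, so these counts are not independent of each other. In the 20 comparisons without a call among the 10, the share of all genes called was 0% with Sfmbt2, Chd5 and Hoxa5 CD2, 0.00502% in H4 parental, 0.01% with Arid5b, 0.015% with Vwc2, 0.0251% with Zbtb7c, 0.0451% with Btbd3 and 0.0602% with Tox. It was 0.291% with Zic1, 0.311% with Klf5, 0.361% with Hey1, 0.471% with Klf6 and 2.35% with Hoxc6 CD2, and is given below for the others. Between lines, 14 of 70 tests passed, 10 lower and 4 higher, in 6 of 7 comparisons, that is 20% against 4.02% of all gene tests (1.79% higher and 2.23% lower). Pou3f1 CD14 and Pou3f1;DNLhx3 each enter several of the 7, so these counts share arrays too. The 10 genes were chosen with earlier results of these data known, so neither the 5.19% nor the 20% tests them as a set.

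**Figure D1:**
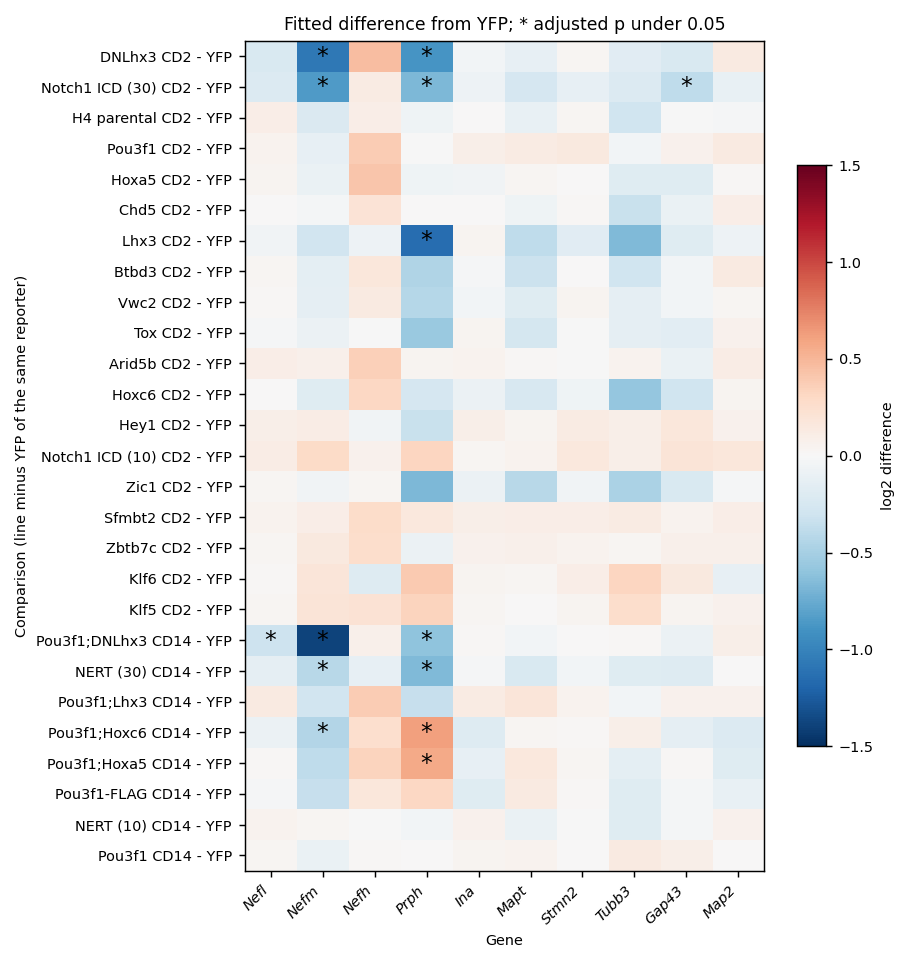
Fitted log2 difference from YFP of the same reporter for the 10 genes (columns) in 27 lines (rows), H4 parental among them, with blue for lower and red for higher than YFP and a star for an adjusted p under 0.05. The 14 stars lie in 4 columns, 7 of them in that of Prph and 5 in that of Nefm.

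Across the 66 arrays of batches 1 to 7, Nefm spanned 11.88 to 13.59 (SD 0.35) and Prph 11.37 to 13.18 (SD 0.40). The widths of these ranges were 3.28-fold and 3.50-fold. Tubb3 spanned 11.63 to 13.09 (SD 0.40) and Nefh 9.10 to 10.29 (SD 0.28). Nefl, Ina and Stmn2 read close to the ceiling of the arrays, whose maxima were 14.54 to 14.86. They spanned 13.87 to 14.34, 13.86 to 14.21 and 13.72 to 14.21 (SDs 0.10, 0.09 and 0.12). Mapt, Gap43 and Map2 spanned 11.01 to 11.89, 12.64 to 13.52 and 12.66 to 13.32 (SDs 0.20, 0.19 and 0.15). Genes with mean values of 14 to 15 had a median SD of 0.10 (12 genes, Nefl, Ina and Stmn2 among them), and those of 8 to 9 one of 0.25 (2676 genes).

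**Figure D2:**
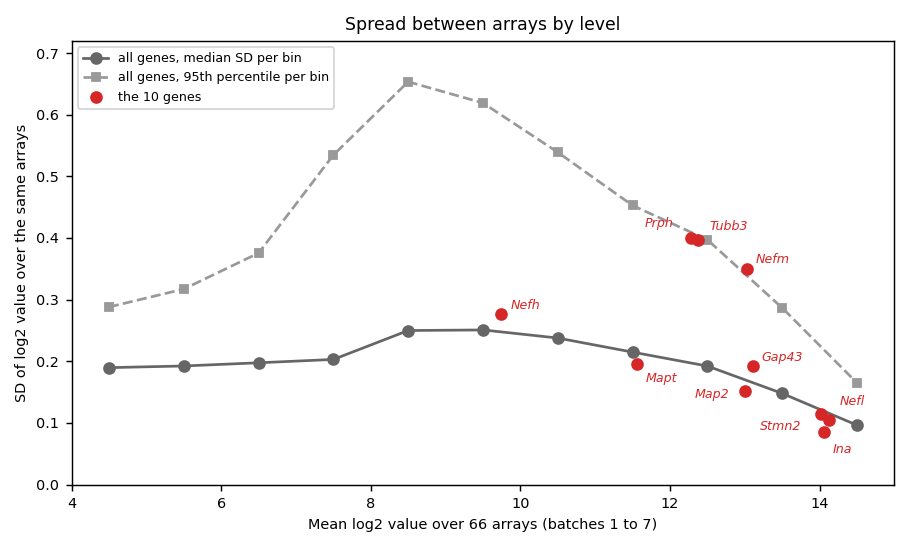
SD over 66 arrays against mean log2 value, with lines for the median and the 95th percentile of all genes in bins 1 unit wide and points for the 10 genes. Nefm (SD 0.35) lies above the 95th percentile of its bin (0.29), but its mean (13.03) is just past the bin edge. In the bin below, the 95th percentile is 0.40, above the SD of Nefm. Prph (0.40) and Tubb3 (0.40) lie at theirs (0.40). Nefl (0.10), Ina (0.09) and Stmn2 (0.12) lie near the median of theirs (0.10), a bin of 12 genes that includes them.

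Ordered by mean, Nefm was lowest in Pou3f1;DNLhx3 CD14 (11.98 ± 0.15), then in DNLhx3 CD2 (12.13 ± 0.05), Notch1 ICD (30) CD2 (12.35 ± 0.09), NERT (30) CD14 (12.68 ± 0.09) and Pou3f1;Lhx3 CD14 (12.81 ± 0.20; SD, n = 2 each). It was highest in Klf6 CD2 (13.38 ± 0.02), Klf5 CD2 (13.40 ± 0.01) and E3 parental induced (13.41, both arrays), above which lay the single E3 parental array (13.59). YFP CD2 (13.21 ± 0.10) and YFP CD14 (13.23 ± 0.17; SD, n = 4 each) were neighbours in the upper part of the order. Of the 30 neighbouring pairs in it, 25 differed by no more than their summed SDs. Prph ran from DNLhx3 CD2 (11.60 ± 0.09) and Hey1 CD2 (11.75 ± 0.15) up to Pou3f1;Hoxa5 CD14 (13.09 ± 0.03) and Pou3f1;Hoxc6 CD14 (13.13 ± 0.07; SD, n = 2 each), and 27 of its 30 neighbouring pairs lay within their summed SDs. YFP CD2 averaged 12.27 ± 0.32 and YFP CD14 12.62 ± 0.12 (SD, n = 4 each).

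**Figure D3:**
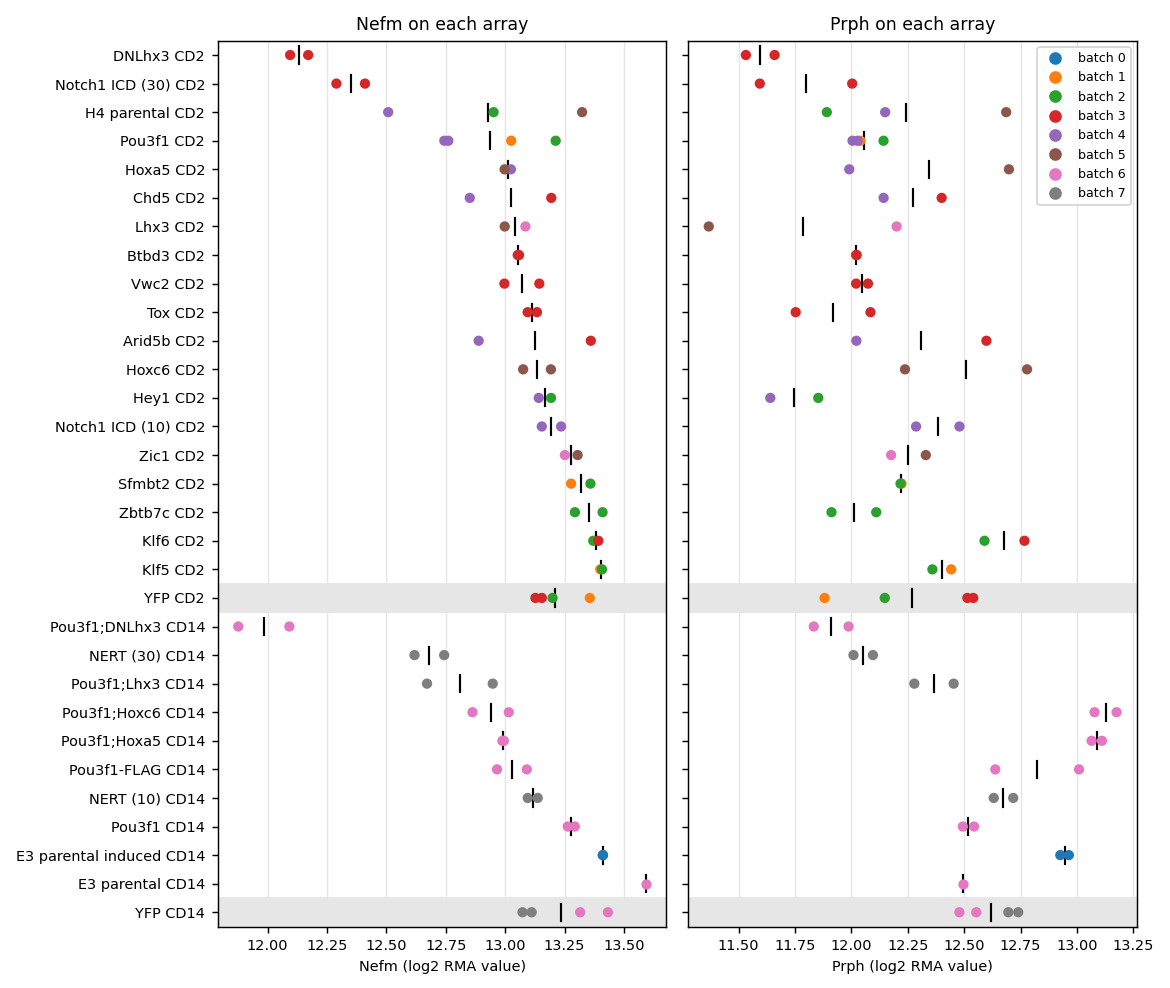
Nefm (left) and Prph (right) as log2 RMA values on each of the 68 arrays (points, coloured by batch), with the mean of each group (bar) and the YFP groups shaded. Nefm lies lowest in the DNLhx3, Pou3f1;DNLhx3 and Notch1 ICD (30) lines, and Prph highest in Pou3f1;Hoxa5 and Pou3f1;Hoxc6 CD14.

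Notch signalling keeps neural progenitors from differentiating and is low in neurons. With the Notch1 intracellular domain on for 30 h, Nefm, Prph and Gap43 fell. Nefm read 12.29 and 12.41 in Notch1 ICD (30) CD2, against 13.13 to 13.36 (median 13.18) in YFP CD2, and the groups did not overlap. It fell 1.81-fold (log2 difference -0.85 ± 0.11, adjusted p = 6.32e-07), and kept its call without any 1 of the 6 arrays.

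Prph read 11.59 and 12.00 in Notch1 ICD (30) CD2, and 11.88, 12.15, 12.51 and 12.54 in YFP CD2. The groups overlapped, and the lower YFP values were those of batches 1 and 2, so the difference of -0.68 ± 0.15 (adjusted p = 0.00251) rests on the batch terms and on the batch 3 YFP arrays. Within batch 3 alone it was -0.73 (adjusted p = 0.0272). Without batch terms it was -0.47 (adjusted p = 0.190), and without replicate 1 of the line -0.47 (adjusted p = 0.185). Gap43 read 12.64 and 12.80 in Notch1 ICD (30) CD2, against 12.98 to 13.23 in YFP CD2, with no overlap. It fell by 0.38 on the log2 scale (SE 0.09, adjusted p = 0.00352), and lost its call without replicate 1 of the line (-0.30, adjusted p = 0.144) and within batch 3 alone (-0.30, adjusted p = 0.366). The other 7 genes did not pass, among them Nefl (-0.21, adjusted p = 0.0955) and Mapt (-0.26, adjusted p = 0.135). Of all genes 6.07% passed here, and the median difference of the 10 was -0.21, against -0.03 for all genes.

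In NERT (30), in CD14 cells, Nefm and Prph fell too. Prph read 12.01 and 12.10 in NERT (30), against 12.70 and 12.74 in YFP CD14 of the same batch 7 and 12.48 and 12.55 in batch 6, so the groups did not overlap. It fell 1.59-fold (-0.67 ± 0.16, adjusted p = 0.00892). Nefm read 12.62 and 12.74 in NERT (30), against 13.07 and 13.11 in batch 7 YFP and 13.32 and 13.43 in batch 6, again with no overlap, and fell 1.33-fold (-0.41 ± 0.12, adjusted p = 0.0406). With batch terms these differences rest on the batch 7 arrays alone, so a fit of batch 7 had to give the same values. Its adjusted p was 0.00243 for Prph and 0.0339 for Nefm. Without batch terms Prph missed the threshold (-0.56, adjusted p = 0.0556). Nefm lost its call without either NERT (30) array or either batch 7 YFP array (adjusted p 0.0877 to 0.364), and Prph without NERT (30) replicate 2 or either batch 7 YFP array (0.0646 to 0.128). Gap43 was at -0.19 (adjusted p = 0.277). Of all genes 4.7% passed.

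After 10 h none of the 10 genes passed. In Notch1 ICD (10) CD2, Nefm read 13.24 and 13.15 and Prph 12.29 and 12.48, all within the YFP CD2 ranges given above. The fitted differences were 0.29 for Nefm (adjusted p = 0.239) and 0.33 for Prph (adjusted p = 0.332), and 2.96% of all genes passed. The Notch1 ICD (10) arrays are of batch 4, which holds no YFP array. Their fitted values and the 2.96% thus rest on lines found in several batches, among them the 6 batch 4 arrays that stand apart. Without batch adjustment, the group means of Nefm were 13.19 in Notch1 ICD (10) and 13.21 in YFP CD2. In NERT (10) CD14, Nefm read 13.14 and 13.09 and Prph 12.63 and 12.72, again within the YFP CD14 ranges, and 0.416% of all genes passed. Hes5, a direct Notch target, already read 10.51 and 10.92 in Notch1 ICD (10), against 9.05 to 9.39 in YFP CD2, and 10.51 and 10.79 in NERT (10), against 8.71 to 9.17 in YFP CD14.

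The 30 h and 10 h arrays were then set against each other. For NERT, both in batch 7, Nefm was lower after 30 h by 0.43 on the log2 scale (SE 0.12, adjusted p = 0.0317) and Prph by 0.62 (SE 0.16, adjusted p = 0.0184), with no overlap of arrays for either and with 3.78% of all genes called. Both lost their calls without any 1 of the 4 arrays (adjusted p 0.0796 to 0.375) and without batch terms (0.230 for Nefm and 0.215 for Prph), and Prph with batch as a random block (0.0635). For Notch1 ICD, Nefm (-1.14 ± 0.15, adjusted p = 1.19e-06), Gap43 (-0.57 ± 0.11, adjusted p = 0.000885) and Nefl (-0.32 ± 0.10, adjusted p = 0.0375) were lower after 30 h, where 6.41% of all genes were called. Prph fell by 1.00 on the log2 scale (SE 0.20, adjusted p = 0.000877). The 30 h arrays are of batch 3 and the 10 h arrays of batch 4, so these values rest on lines found in several batches, among them the 6 batch 4 arrays that stand apart. Without these 6 arrays Nefm was at -0.81 (adjusted p = 0.0146) and Prph at -1.17 (adjusted p = 0.0450), while Gap43 (-0.53, adjusted p = 0.104) and Nefl (-0.39, adjusted p = 0.191) no longer passed. Without batch terms Nefm kept its call, and Prph (-0.58, adjusted p = 0.176), Gap43 (-0.36, adjusted p = 0.147) and Nefl (-0.23, adjusted p = 0.193) did not. The Nefl call was also lost with CD2 arrays only, with batch as a random block and with a replicate block (adjusted p = 0.175, 0.0517 and 0.0685), and without either 10 h array or replicate 1 of the 30 h arrays (0.0522 to 0.233).

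**Figure D4:**
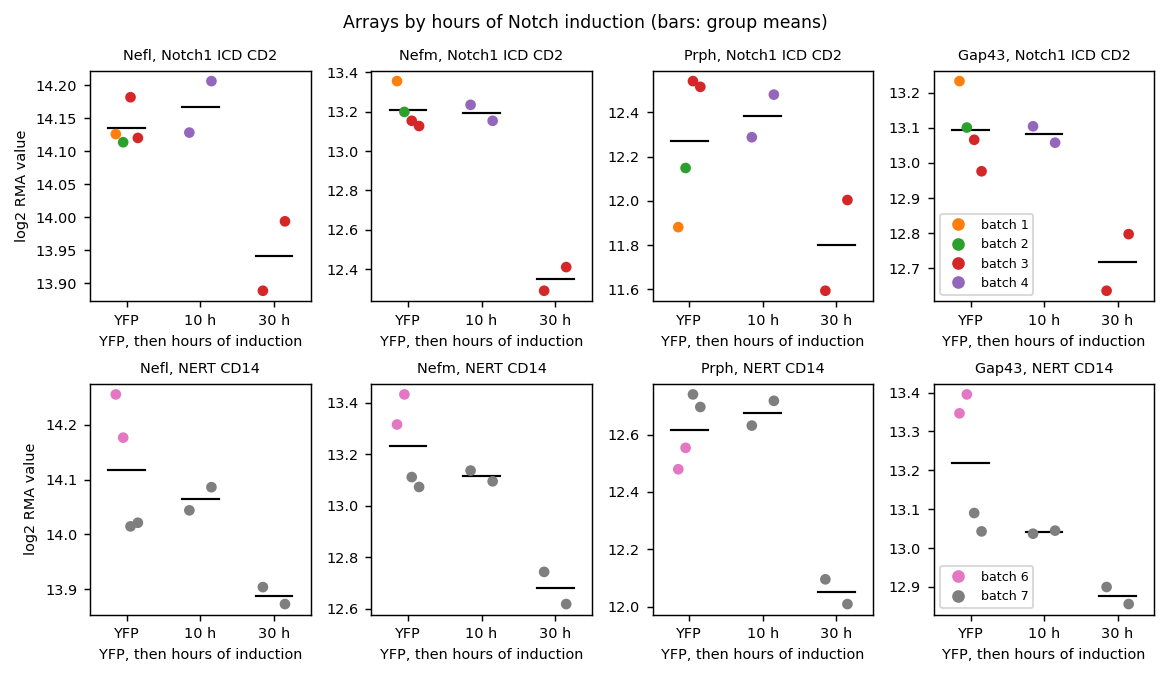
Log2 RMA values of Nefl, Nefm, Prph and Gap43 on each array in YFP, after 10 h and after 30 h of induction, for Notch1 ICD in CD2 cells (top) and NERT in CD14 cells (bottom), coloured by batch and with group means as bars. In both rows the 30 h arrays of Nefm lie below all YFP and 10 h arrays (12.29 and 12.41 with Notch1 ICD, 12.62 and 12.74 with NERT).

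Other genes moved beside them. Of 10 motor neuron markers, 7 fell in Notch1 ICD (30) and 9 in NERT (30), and none rose. With Notch1 ICD (30), Isl2 fell by 1.24, Isl1, a LIM homeodomain factor of motor neurons, by 0.91, and Slc5a7, the choline transporter, by 0.88 on the log2 scale. With NERT (30), Lhx4 fell by 1.05, Ret by 1.03 and Slc5a7 by 1.00. Of 14 progenitor markers, 2 rose with Notch1 ICD (30), Hes5 by 2.18 and Sox9 by 2.07, and 3 with NERT (30), Hes5 by 2.68, Sox9 by 2.09 and Pax6 by 0.90. The mean level of the 14 was 10.99 on both Notch1 ICD (30) arrays, against 10.18 to 10.61 in YFP CD2, and 10.92 on both NERT (30) arrays, against 10.08 to 10.37 in YFP CD14. The mean of 16 cell cycle genes was 10.99 to 11.04 in Notch1 ICD (30), against 9.15 to 10.52, and 11.03 to 11.10 in NERT (30), against 9.32 to 10.58, with 1 gene called in each, Ccnd1, a cyclin (3.09 and 1.36). Tal1 and Gata3, factors of a ventral interneuron class, rose by 2.89 and 2.47 with Notch1 ICD (30) and by 2.74 and 1.75 with NERT (30), among 4 and 3 risers of 14 interneuron markers. Of 12 mesoderm and fibroblast markers, 1 rose and 1 fell in each line, Pdgfrb (1.66 and 1.58) and, with Notch1 ICD (30), Dcn (-2.79) and, with NERT (30), Col1a2 (-0.84). Of 8 glial markers, 2 rose and 1 fell with Notch1 ICD (30) and 1 rose with NERT (30), Aldh1l1 among them (0.94 and 1.21), and of 11 pluripotency markers 2 rose with Notch1 ICD (30) and none with NERT (30). The part of other cell types in the fall of Nefm and Prph was not tested.

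Lhx3 is a LIM homeodomain protein of newly born motor neurons, and lines carried it or DNLhx3 alone or with Pou3f1. With DNLhx3, Nefm and Prph fell. In CD2 cells Nefm read 12.10 and 12.17 in DNLhx3, against 13.13 to 13.36 in YFP CD2, with no overlap. It fell 2.10-fold (-1.07 ± 0.11, adjusted p = 1.76e-08). Prph read 11.53 and 11.66 in DNLhx3, below all 4 YFP CD2 values, and fell 1.84-fold (-0.88 ± 0.15, adjusted p = 0.000154). Both kept their calls within batch 3 alone (-1.01 and -0.93, adjusted p = 0.00121 and 0.00990) and without any 1 of the 6 arrays. Nefl, at 13.89 and 13.94 in DNLhx3 and 14.11 to 14.18 in YFP CD2, did not overlap either, but its difference of -0.23 ± 0.07 did not pass (adjusted p = 0.0665). Nefh was on the other side, at 10.06 and 10.29 in DNLhx3 and 9.10 to 9.92 in YFP CD2 (0.46, adjusted p = 0.137). Of all genes 4.09% passed.

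With Pou3f1 and DNLhx3 in CD14 cells, Nefm read 11.88 and 12.09, against 13.32 and 13.43 in YFP CD14 of the same batch and 13.07 and 13.11 in batch 7. It fell 2.62-fold (-1.39 ± 0.12, adjusted p = 8.12e-11), the lowest adjusted p of the 270 tests against YFP. Prph read 11.83 and 11.99, against 12.48 to 12.74 in YFP CD14, and fell 1.52-fold (-0.61 ± 0.16, adjusted p = 0.0199). Nefl read 13.90 and 13.92, against 14.18 and 14.26 in batch 6 YFP and 14.01 and 14.02 in batch 7, and fell by 0.31 on the log2 scale (SE 0.08, adjusted p = 0.0155). None of these overlapped. With batch terms the differences rest on the batch 6 arrays, so leaving out a batch 7 YFP array cannot move them. The Nefm call held without any 1 of the 6 arrays. Those of Prph and Nefl were lost without any 1 of the 4 batch 6 arrays (adjusted p 0.0583 to 0.247 for Prph and 0.0554 to 0.225 for Nefl), and that of Nefl without batch terms (-0.21, adjusted p = 0.127). Of all genes 4% passed, and the median difference of the 10 genes was -0.02, against -0.01 for all genes.

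Set against Pou3f1 alone in the same batch, Nefm, Nefl and Prph were lower in Pou3f1;DNLhx3 too. Nefm was at 13.26 and 13.29 in Pou3f1 CD14, so the difference was -1.29 ± 0.12 (adjusted p = 9.24e-10). Nefl differed by -0.34 ± 0.08 (adjusted p = 0.0105) and Prph by -0.61 ± 0.16 (adjusted p = 0.0321), with 2.11% of all genes called. These calls of Nefl and Prph were lost without any 1 of the 4 arrays (adjusted p 0.0714 to 0.140 and 0.0860 to 0.370), and that of Prph also without batch terms (adjusted p = 0.356), with batch as a random block (0.106) and with a replicate block (0.0509).

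With Lhx3 itself, Nefm passed in neither line. In Pou3f1;Lhx3 CD14, Nefm read 12.67 and 12.95, against 13.07 and 13.11 in YFP of the same batch (-0.28 ± 0.12, adjusted p = 0.289), and Prph 12.45 and 12.28, against 12.74 and 12.70 (-0.35, adjusted p = 0.348). None of the 10 passed, against 3.94% of all genes. Set against Pou3f1;DNLhx3 through the YFP arrays of both batches, Nefm was 2.15-fold higher with Pou3f1;Lhx3 (1.11 ± 0.17, adjusted p = 7.68e-05) and Nefl 1.36-fold higher (0.45 ± 0.11, adjusted p = 0.0310), while Prph was at 0.25 (adjusted p = 0.971), with 1.23% of all genes called. The Nefl call was lost without any 1 of the 4 arrays (adjusted p 0.0543 to 0.190), without batch terms (0.105), after quantile normalization once more (0.0535) and with a replicate block (1.00), which also ended the Nefm call (0.95, adjusted p = 0.176), though these lines share no replicate number. The lines lie in batches 7 and 6, so line and batch are separated only by YFP.

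In CD2 cells Lhx3 gave 1 call. Prph read 11.37 and 12.20, in batches 5 and 6, which hold no YFP CD2 array, against 11.88 to 12.54 in YFP CD2 of batches 1 to 3. The groups overlapped, and the fitted difference was -1.14 ± 0.23 (adjusted p = 0.00506). It was -0.40 (adjusted p = 0.842) without the batch 5 array, -0.49 (adjusted p = 0.152) without batch terms and -0.56 (adjusted p = 0.103) with batch as a random block. Tubb3 was at -0.66 (95% interval -1.17 to -0.16, adjusted p = 0.109) and Nefm at -0.29 (adjusted p = 0.327). Of all genes 3.81% passed.

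**Figure D5:**
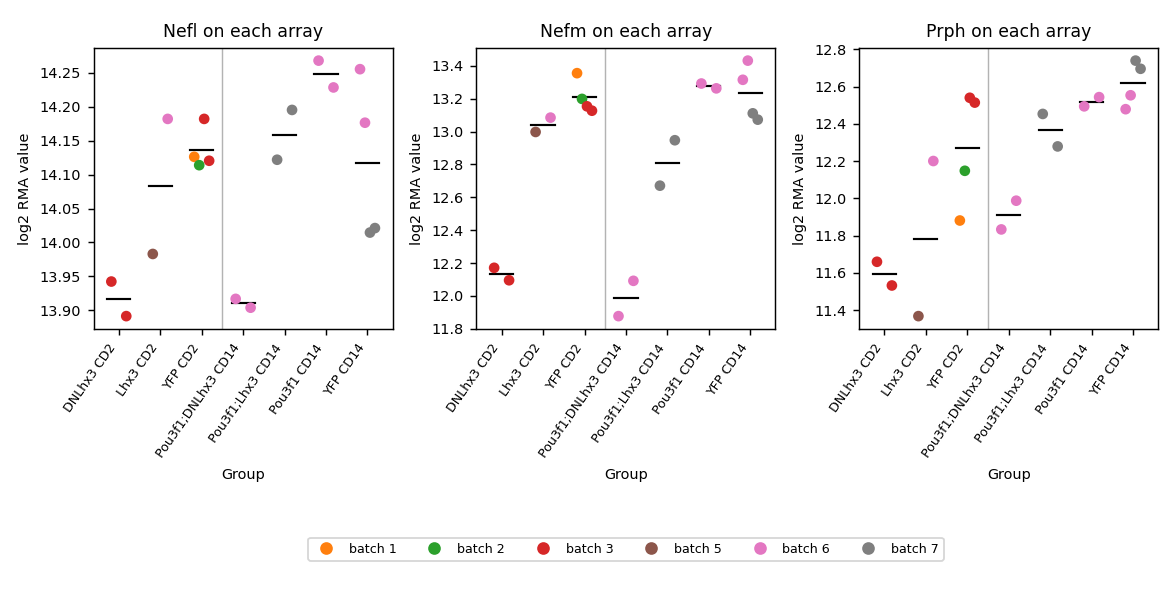
Log2 RMA values of Nefl, Nefm and Prph on each array of the DNLhx3 and Lhx3 lines and their controls, with CD2 cells left of the grey line and CD14 cells right of it, points coloured by batch and bars for group means. The DNLhx3 arrays of Nefm (12.10 and 12.17 in CD2 cells, 11.88 and 12.09 with Pou3f1 in CD14 cells) lie below all Lhx3, Pou3f1 and YFP arrays.

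Motor neuron markers moved with the DNLhx3 lines too: 5 of 10 fell and 1 rose in DNLhx3 CD2, and 6 fell in Pou3f1;DNLhx3 CD14. Ret fell by 2.41, Slc5a7 by 1.56, Chat by 1.38 and Isl1 by 1.03 in Pou3f1;DNLhx3. In DNLhx3 CD2, Slc5a7 fell by 1.14 and Chat by 0.94, and Lhx4, a relative of Lhx3, rose by 1.18. The mean level of the 10 markers was 10.65 to 10.80 in DNLhx3, against 10.89 to 11.19 in YFP CD2, and 10.42 to 10.50 in Pou3f1;DNLhx3, against 11.14 to 11.23 in YFP CD14. Lhx1, a LIM homeodomain factor in the interneuron list, rose by 4.10 and 3.59. It is 1 of 14 markers in that list and does not stand for the others. The mean of the list moved far less, to 7.52 and 7.66 in DNLhx3 CD2, against 7.32 to 7.42 in YFP CD2. In Pou3f1;DNLhx3 it was 7.53 and 7.55, against 7.18 to 7.30 in YFP CD14, with Lhx1 included in each mean. Of 14 progenitor markers, 1 rose in DNLhx3 and 2 rose and 1 fell in Pou3f1;DNLhx3, among them Nkx6-1 (0.74 and 1.26). Of 12 mesoderm and fibroblast markers 1 fell in each, Twist1 in DNLhx3 (-0.54) and Acta2 in Pou3f1;DNLhx3 (-2.25), and cell cycle genes passed in neither line (median differences -0.02 and 0.12). The part of these changes in the fall of Nefm and Prph was not tested.

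In 2 lines Prph rose. It read 13.07 and 13.11 in Pou3f1;Hoxa5 CD14 and 13.18 and 13.08 in Pou3f1;Hoxc6 CD14, against 12.48 to 12.74 in YFP CD14, all 4 above every YFP array. It rose 1.49-fold with Pou3f1;Hoxa5 (0.57 ± 0.16, adjusted p = 0.0268) and 1.53-fold with Pou3f1;Hoxc6 (0.61 ± 0.16, adjusted p = 0.0116). Without batch terms Prph missed the threshold in both (adjusted p = 0.155 with Pou3f1;Hoxa5 and 0.0980 with Pou3f1;Hoxc6), as it did with batch as a random block (0.111 and 0.0618), and a replicate block ended the call with Pou3f1;Hoxa5 (0.52, adjusted p = 0.252). Nefm ran the other way, at 12.99 on both Pou3f1;Hoxa5 arrays and at 12.86 and 13.02 in Pou3f1;Hoxc6, against 13.07 to 13.43 in YFP CD14. It fell with Pou3f1;Hoxc6 (-0.44 ± 0.12, adjusted p = 0.0172) and was at -0.38 with Pou3f1;Hoxa5 (adjusted p = 0.0531). Of all genes 5.92% passed with Pou3f1;Hoxa5 and 8.98% with Pou3f1;Hoxc6.

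These lines are among the 6 arrays of batch 6 that stand apart by Malat1. The Pou3f1-FLAG arrays, which share that feature and carry no Hox transgene by their label, read Prph at 13.01 and 12.64 and Nefm at 12.97 and 13.09. Against YFP, Pou3f1-FLAG was at 0.31 for Prph (adjusted p = 0.377) and at -0.35 for Nefm (adjusted p = 0.127), and none of the 10 genes passed, against 2.44% of all genes. With Pou3f1 CD14 as the control, where Prph read 12.49 and 12.54, Prph was higher by 0.57 in Pou3f1;Hoxa5 (adjusted p = 0.0400) and by 0.61 in Pou3f1;Hoxc6 (adjusted p = 0.0130), with 3.45% and 8.97% of all genes called. With Pou3f1-FLAG as the control, a choice made after seeing the data, these differences were 0.26 (adjusted p = 1.00) and 0.30 (adjusted p = 0.869). Against Pou3f1 both also missed the threshold without batch terms (0.292 with Pou3f1;Hoxa5 and 0.128 with Pou3f1;Hoxc6), and Pou3f1;Hoxa5 with batch as a random block (0.104) or a replicate block (0.314). The calls of Prph against YFP and against Pou3f1 were lost without any 1 of the 4 batch 6 arrays involved (adjusted p 0.0539 to 0.253). That of Nefm with Pou3f1;Hoxc6 was lost without replicate 1 of that line or either batch 6 YFP array (0.0580 to 0.214) and without batch terms (-0.29, adjusted p = 0.191). Pou3f1-FLAG against Pou3f1 CD14 gave none of 10, with 2.21% of all genes called. Of 10 motor neuron markers, 1 rose and 1 fell with Pou3f1;Hoxa5 (Mnx1 0.73, Ret -1.31) and 2 rose and 2 fell with Pou3f1;Hoxc6, among them Isl2 (-1.44), and of 14 progenitor markers 3 and 4 fell. The part of these changes, and of what sets the 6 arrays apart, in the rise of Prph was not tested.

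Ina showed its only call here. It read 14.00 and 13.86 in Pou3f1;Hoxc6, against 14.15 and 14.17 in Pou3f1 CD14, with no overlap, and was lower by 0.23 on the log2 scale (SE 0.07, adjusted p = 0.0360). Its second transcript cluster differed by -0.33 in the same fit (adjusted p = 0.0356). Against Pou3f1-FLAG the difference was -0.02 (adjusted p = 1.00). The 6 arrays that stand apart read Ina at 13.86 to 14.02, against 14.12 to 14.17 on the other 7 CD14 arrays of batch 6. The call was also lost without either Pou3f1 array or replicate 2 of Pou3f1;Hoxc6 (adjusted p 0.118 to 0.378), without batch terms (0.121), after quantile normalization once more (0.156) and with a replicate block (0.0568). Map2 split in the same way, with 12.83 to 12.96 on the 6 arrays and 13.02 to 13.14 on the other 7, and passed in neither line (-0.18 and -0.20, adjusted p = 0.360 and 0.249).

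The microtubule and growth cone genes passed rarely or never. Nefh, a filament gene without a call, is described with them. Largest in size against YFP were Tubb3 with Lhx3 CD2, given above, Mapt with Zic1 CD2 (-0.42, 95% interval -0.73 to -0.11, adjusted p = 0.280), Nefh with DNLhx3 CD2 (0.46, 95% interval 0.11 to 0.81, adjusted p = 0.137), Map2 with Pou3f1;Hoxc6 (-0.20, 95% interval -0.41 to 0.01) and Stmn2 with Lhx3 CD2 (-0.17, adjusted p = 0.402). Over all 27 comparisons the 95% intervals reached no further than -0.42 and 0.34 for Stmn2, -0.41 and 0.39 for Map2, -0.34 and 0.26 for Ina and -0.73 and 0.40 for Mapt. Those of Tubb3 reached -1.17 and 0.63 and those of Nefh -0.62 and 0.83. Stmn2 and Ina read near the top of the scale, where the spread of all genes is narrow, so their intervals bound differences in the measured values and not in RNA.

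Levels were also set side by side by reporter, over 21 CD14 and 45 CD2 arrays. Tubb3 read 12.57 to 13.09 (median 12.82) on CD14 arrays, against 11.63 to 12.72 (median 12.21) on CD2 arrays. Medians were also higher under CD14 for Prph (12.55, against 12.14), Gap43 (13.28, against 13.07), Stmn2 (14.15, against 14.00) and Mapt (11.62, against 11.60). They were lower for Map2 (12.84, against 13.07), Nefm (13.02, against 13.14), Ina (13.98, against 14.09) and Nefh (9.76, against 9.79) and 14.13 under both for Nefl, and all 10 ranges overlapped. Batch 7 holds no CD2 array and batches 1 to 5 hold no CD14 array, so reporter and batch cannot be told apart for most arrays. Batch 6 holds both, and its CD2 arrays read Tubb3 at 12.64 (Lhx3) and 12.72 (Zic1), within the CD14 range. The same lines read it at 11.91 and 12.21 in batch 5. Most lines also differ between the reporters. Within YFP CD14, all 10 genes differed between batch 7 and batch 6 without overlap: 9 were lower in batch 7, by 0.14 (Stmn2) to 0.40 (Mapt) on the log2 scale, and Prph was higher by 0.20. Of all genes, 63.8% did not overlap between these arrays and 36% were lower in batch 7. Pou3f1, the transgene present under both reporters, gave no call among the 10 in either, with 2.09% of all genes called in CD2 cells and 0.306% in CD14 cells. Its effect in CD14 minus that in CD2 passed for none of the 10, with differences of -0.37 (Nefh) to 0.18 (Tubb3) and 0.01% of all genes called.

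Further cytoskeletal genes were listed by function and followed in the 7 lines, where 3.81% to 8.98% of all genes were called. Of 11 other intermediate filament genes, at most 2 fell in any of the 7 lines with a call and none rose: Des, the muscle filament, fell by 0.67 with Notch1 ICD (30) and by 0.70 with NERT (30), Synm by 0.60 and Vim, the filament of progenitors, by 0.32 with Pou3f1;DNLhx3, and Nes, another progenitor filament, by 0.92 with Pou3f1;Hoxa5 and 0.76 with Pou3f1;Hoxc6. Of 9 other tubulins measured, 1 fell in each of 3 lines, Tuba4a with Notch1 ICD (30) (-0.41), Tubb2a with Lhx3 CD2 (-0.58) and Tubb6 with Pou3f1;Hoxa5 (-0.73). Of 28 microtubule-associated genes, 0 to 4 fell and 0 or 1 rose per line, among them Stmn4, a relative of Stmn2, lower by 0.75 with Notch1 ICD (30) and 0.84 with DNLhx3 CD2, and Dclk1, a doublecortin-like kinase, higher by 0.99 with Pou3f1;DNLhx3. Of 14 motors of axonal transport, Dync1i1, an intermediate chain of dynein, fell in 5 of the 7 lines, with differences of -1.36 with Notch1 ICD (30), -1.74 with DNLhx3 CD2, -1.91 with Pou3f1;DNLhx3, -1.66 with Lhx3 CD2 and -0.85 with Pou3f1;Hoxc6. The mean of this list was 11.22 and 11.33 in DNLhx3 CD2, against 11.205 to 11.41 in YFP CD2. In Pou3f1;DNLhx3 it was 11.20 and 11.31, against 11.14 to 11.34 in YFP CD14. In NERT (30) it was 11.08 and 11.09, below the YFP CD14 range. Among 22 genes of the growth cone and actin, L1cam, an adhesion molecule of axons, fell in 4 of the 7 (-0.32, -0.36, -0.42 and -0.38). Dync1i1 and L1cam do not stand for their lists. Synaptic and mature neuron genes, a further list, averaged 11.30 and 11.42 in DNLhx3 CD2, against 11.26 to 11.40 in YFP CD2. In Pou3f1;DNLhx3 they averaged 11.45 and 11.46, against 11.18 to 11.44 in YFP CD14. They averaged 11.08 and 11.145 in Notch1 ICD (30) and 10.99 on both NERT (30) arrays, below all YFP arrays of their reporter.

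Among themselves the 10 genes varied together only in part. After centring on batch, over 66 arrays, 37 of 45 pairs had a positive Pearson r, with a median of 0.28. The closest pair was Nefl and Nefm (0.74), then Nefl and Gap43 (0.63) and Stmn2 and Gap43 (0.58). Nefm and Nefh lay at the other end (-0.27), with Prph and Ina (-0.24) next to them. These arrays share normalization, lines and batches, so the coefficients only describe them. The genes most like the mean of the 10 were Rab3d (0.79), Tspan17 (0.78), Dync1i1 (0.77), Stx1a (0.76) and Asb1 (0.76), and those least like it Tmpo (-0.76), Ska1 (-0.76), Rtkn2 (-0.75), Hmgb2 (-0.74) and Brca2 (-0.73), over the same 66 arrays.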

How the data were processed

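The deposited log2 values of 35556 transcript clusters on 68 arrays were made by the authors with RMA (background correction, quantile normalization, summary of probes) through oligo, per the submitters' processing notes. Versions and the build behind the annotation were not stated there, and scanner intensities were not used here. Precision is limited by the number of arrays. Symbols came from the annotation given for the array, where 21789 clusters had 1 symbol, and the cluster with the highest mean was kept for each of 19938 genes, with no filter on low values.

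All 68 arrays entered 1 limma fit (lmFit and eBayes, limma 3.58.1, R 4.3.3) with group and batch terms (37 columns, 31 residual and 6.08 prior degrees of freedom). There were 27 comparisons with YFP of the same reporter, 7 between lines and 1 interaction. Tests were two-sided with Benjamini-Hochberg adjustment per comparison. Batches 4 and 5, and the CD2 arrays of batch 6, have no YFP of their reporter beside them, so they are tied to YFP through lines in several batches. Group means and SDs are of the deposited values, while differences are batch-adjusted. All 10 genes were named in every comparison, with up to 4 called genes of largest change per functional or marker list in the lines described, and the 5 genes most and least like the mean of the 10. The 10 genes and the lists were chosen with earlier results of these data known, and the lists come from general knowledge. The fit was also run on simulated data, with independent noise around batch means and known changes in 1 group. These data held no arrays that stand apart and no technical replicates, so they cannot test the effect of either. Replicates in a batch correlated across genes at 0.987 to 0.998 (21 pairs), and shared identical values for 8 genes at most, so each counted as its own sample. Same-numbered arrays of a batch did not deviate together throughout (r from -0.17 to 0.57, above 0.1 in 10 of 29 pairs), so numbers were not taken as pairs. Alternatives were no batch terms, batch as a random block, arrays of 1 reporter or 1 batch, repeated quantile normalization, a filter on dim genes, a replicate block, the second Ina cluster, leaving out the 6 batch 4 arrays or each array in turn, and Pou3f1-FLAG as a control.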

Additional observations from a re-analysis of the deposited data

How the results depend on the processing

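None of the 28 calls of the 10 genes changed sign in 361 recalculations, and 103 of these missed the threshold, 63 of them with 1 array left out and 40 in other settings. Some of the 361 could not have changed a sign. The filter on dim genes moves no estimate, and leaving out CD2 arrays moves no CD14 difference. Whichever array was left out, 9 calls held, 9 held in all the other settings run, and 6 held in both. The 14 calls against YFP numbered 10 without batch terms, 21 with arrays of 1 reporter only, and 9 to 16 when 1 array was left out, with 9 reached without either batch 6 YFP CD14 array. The 20 comparisons with no call then had 3 calls with arrays of 1 reporter, 2 without the 6 batch 4 arrays and 0 to 1 without 1 array. Shares of all genes called were not computed in these settings, here or in the paragraphs below. A change in these counts therefore cannot be told apart from a change in calls over all genes.

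Calls per comparison depended on the setting as follows. Lhx3 CD2 against YFP had 1 call, 0 without batch terms or with batch as a random block, and 2 without the 6 batch 4 arrays. Pou3f1;Hoxa5 against YFP had 1, 0 with the random block and 2 with arrays of 1 reporter, without the 6 arrays, after quantile normalization once more, without dim genes or in batch 6 alone. Pou3f1;Hoxc6 against YFP had 2, 0 without batch terms, 1 with the random block and 4 with arrays of 1 reporter. Against Pou3f1, Pou3f1;Hoxa5 had 1, 0 without batch terms, with the random block or against Pou3f1-FLAG, and 2 with arrays of 1 reporter. Pou3f1;Hoxc6 had 2, 0 without batch terms or against Pou3f1-FLAG, 1 after quantile normalization, 5 with arrays of 1 reporter and 4 in batch 6 alone. Pou3f1;Lhx3 against Pou3f1;DNLhx3 had 2, and 1 without batch terms or after quantile normalization. NERT (30) against NERT (10) had 2, 0 without batch terms and 1 with the random block. Notch1 ICD (30) against Notch1 ICD (10) had 4, 1 without batch terms and 2 without the 6 arrays. The causes were not tested.

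With 1 array left out, calls ranged from 1 to 3 for Notch1 ICD (30) and for Pou3f1;DNLhx3 against YFP, 0 to 1 for Lhx3 CD2 and for Pou3f1;Hoxa5 against YFP, and 0 to 2 for Pou3f1;Hoxc6 and for NERT (30) against YFP. They were 0 throughout for Pou3f1;Hoxa5 against Pou3f1 and for NERT (30) against NERT (10), 0 to 1 for Pou3f1;Hoxc6 against Pou3f1, and 1 throughout for Pou3f1;DNLhx3 against Pou3f1 and for Pou3f1;Lhx3 against Pou3f1;DNLhx3.

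With a replicate block, 13 calls stood against YFP in place of 14. Pou3f1;Hoxa5 then had 0 calls against YFP (Prph 0.52, adjusted p = 0.252) and 0 against Pou3f1, Pou3f1;Hoxc6 had 1 against Pou3f1, and Pou3f1;Lhx3 had 0 against Pou3f1;DNLhx3, where no replicate number is shared.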
